A study of Homo sapiens with 6 samples.

Results

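The comparison between 10 h and 1 h of Nutlin-3a was made in HCT116 cells, a human colorectal carcinoma line that carries wild-type p53. It uses 4 of the 6 RNA-seq libraries of the series directly, the 2 labelled Nut10h and the 2 labelled Nut1h, and sets each gene against the 2 vehicle libraries (Nut0h) to say where it stood before treatment. Of 57905 genes in the count table, 16565 had enough counts to be tested. Nut1h and Nut10h cells received 10 µM Nutlin-3a for 1 h and 10 h, Nut0h cells received DMSO, and each condition had 2 biological replicates of this 1 line. The question was which genes moved between the early and the late time point, and which of these moves took a gene beyond its vehicle level and which only brought it back.

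The transcription factor p53 is kept low in unstressed cells by the ubiquitin ligase MDM2, which binds it and marks it for degradation. Nutlin-3a occupies the p53 pocket of MDM2, so that p53 accumulates without DNA damage and binds response elements near genes for cell-cycle arrest, death, DNA repair and metabolism. One of these, CDKN1A, encodes the inhibitor p21, and inhibition of cyclin-dependent kinases lets the DREAM complex of E2F and RB-family proteins repress genes for DNA replication and mitosis.

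The libraries held between 26068076 and 35473485 counts, with the smallest at Nut1h replicate 2. Mitochondrial genes took 8.44% and 8.15% of the counts at Nut1h and 6.45% and 7.06% at Nut10h. Of the 9 intestinal epithelium markers, 8 were tested, while VIL1 had at most 10 counts in any library. Summed normalized counts of the 9 were 202400 and 172296 at Nut0h, and ranged from 116939 to 127203 at Nut1h and from 218910 to 261917 at Nut10h. Of the 12 fibroblast, haematopoietic and endothelial markers, 11 were found in the table and 3 had enough counts to be tested (COL1A1, PDGFRB and VWF), and the other 8 had at most 7 counts in any library except COL1A2, with 25 at Nut10h replicate 2. The fibroblast markers summed to 825 and 789 normalized counts at Nut1h, 1314 and 1215 at Nut10h and 1351 and 1406 at Nut0h, and their part in the results was not tested. Of these, COL1A1 rose by 0.61 between Nut1h and Nut10h and was at -0.33 with the GC trend removed, and PDGFRB rose by 1.75, a call lost without Nut1h replicate 2 (1.26).

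Between Nut1h and Nut10h, 5658 genes rose and 5588 fell at an adjusted p of at most 0.05 (edgeR quasi-likelihood test over all genes), which is 34.2% and 33.7% of the genes tested. Of these, 2714 genes rose and 2032 fell by at least 1 on the log2 scale. Fewer genes differed between Nut10h and the vehicle, where 14.1% were higher and 14.9% lower, than between Nut1h and the vehicle, where 34.5% were higher and 32.3% lower. The 3 comparisons share libraries, so the classes that follow are a description and carry no test of their own.

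Genes were sorted by where they stood at the 3 time points. A late gene had no call between Nut0h and Nut1h, moved after 1 h and ended beyond the vehicle. This held for 615 genes that rose (3.71% of those tested) and 486 that fell (2.93%). In a progressive gene both steps went the same way, as in 128 rising (0.773%) and 131 falling genes (0.791%). In an overshooting gene the 1 h change was undone and the level went past the vehicle on the other side, as in 750 rising (4.53%) and 786 falling genes (4.74%). Together 1493 genes rose to a level above the vehicle (9.01%) and 1403 fell to a level below it (8.47%).

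The largest class was the return to the vehicle level. There were 3152 genes that had been lower at Nut1h and rose back (19.0%) and 3493 that had been higher at Nut1h and fell back (21.1%), with no call against the vehicle at Nut10h. For 75.4% of the former and 71.4% of the latter, the 90% interval of the log2 difference between Nut10h and Nut0h lay within 0.5 on either side, so for the others a remaining difference was not bounded at this size. Another 579 rising genes (3.50%) and 290 falling genes (1.75%) moved back only in part, and 434 (2.62%) and 402 (2.43%) fitted no class. Seen from 1 h, 79.8% of the 5722 genes that were higher than the vehicle had come down by 10 h, and 83.7% of the 5355 that were lower had come up.

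**Figure D1:**
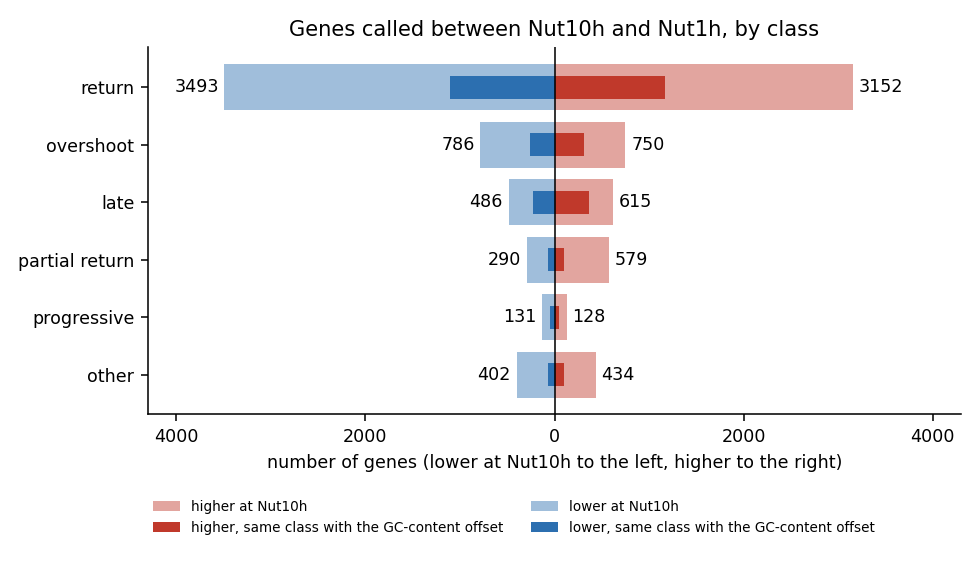
Number of genes called between Nut10h and Nut1h in each class, with rising genes to the right and falling genes to the left. Wide pale bars give all genes of the class and narrow dark bars those that stay in the class when a trend with GC content is removed; the return classes, with 3152 and 3493 genes, are the longest bars and keep 1163 and 1111 genes.

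The return classes were sorted by base composition. The median GC content of the longest transcript was 58.4% in genes that rose back and 41.0% in genes that fell back, against 48.7% over all tested genes with an annotated transcript (97.4% of them). Across GC bins the median log2 difference between Nut10h and Nut1h ran from -0.75 in genes under 40% GC to 1.07 in genes over 60%, and the difference between Nut1h and the vehicle ran the opposite way, from 0.79 to -1.12. Between Nut10h and the vehicle it stayed between -0.08 and 0.04 in every bin, so the trend belonged to the 1 h condition. It was present in each Nut1h library: against the Nut0h mean (log2 of normalized counts plus 1), the medians were 0.82 and 0.75 in genes under 40% GC and -1.16 and -1.06 in genes over 60%. Since these 2 libraries are the whole 1 h condition, an early change of the cells and a property of the library preparation cannot be told apart.

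**Figure D2:**
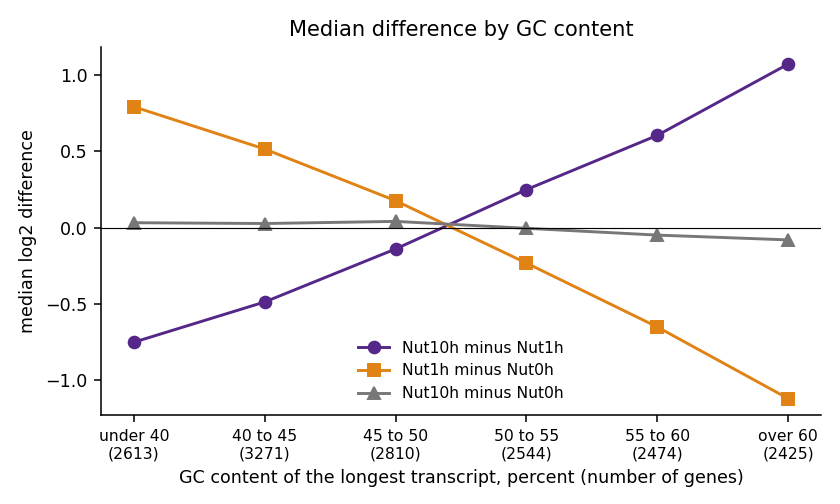
Median log2 difference of the tested genes (vertical axis) in bins of the GC content of the longest transcript (horizontal axis, with gene numbers), for the 3 comparisons. The line for Nut10h minus Nut1h climbs from -0.75 to 1.07, the line for Nut1h minus Nut0h descends from 0.79 to -1.12, and the line for Nut10h minus Nut0h stays near 0.

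With the GC trend of each library removed, 1330 of the 1493 genes that ended above the vehicle (89.1%) and 1217 of the 1403 that ended below it (86.7%) remained in one of the late, progressive and overshooting classes of the same direction. Of the return genes, 1163 of 3152 rising (36.9%) and 1111 of 3493 falling genes (31.8%) remained. A further 1205 rising and 1467 falling return genes were then no longer called between Nut10h and Nut1h, and 349 and 305 were called in the opposite direction. Individual classes were less stable than their union, since 365 of the 615 late rising genes and 226 of the 486 late falling genes stayed late. Of the 190 genes chosen for naming, 78 fell into another class with the correction, 21 of them with no call or the opposite call between Nut1h and Nut10h. Values and class names below are therefore those without the correction. The corrected value is given for genes described here whose call between Nut1h and Nut10h changes, and for some genes whose 1 h step changes. Over all 16565 genes, the corrected fit called 4771 higher and 4811 lower, with 1883 rising and 1627 falling return genes. Counts of list members with the GC trend removed are to be read against these totals.

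Genes of the p53 programme were grouped by role. Of 72 genes in 6 lists, 67 were tested, and 56 rose and 8 fell between Nut1h and Nut10h, against 34.2% and 33.7% of all genes. Their median log2 difference was 1.41, against -0.02 over all tested genes. By class, 14 were late, 21 progressive and 18 overshooting, so that 53 of 67 rose to a level above the vehicle, against 9.01% of all genes. The 5 members without enough counts were TP53AIP1, ACAD11, SPATA18, TP53TG1 and EDA2R, with at most 18 counts in any library.

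Feedback regulators of p53 moved in both directions, with 5 of 8 higher and 3 lower, the latter a share near the 33.7% of all genes. MDM2 itself (chr12:69201957-69239324, GRCh37, plus strand) had 1688 and 2083 normalized counts at Nut0h, 8694 and 8500 at Nut1h, and 22633 and 27946 at Nut10h. Each time point lay apart from the one before, and the later step was 1.56 ± 0.12 on the log2 scale (SE, adjusted p = 8.97e-08). The phosphatase gene PPM1D, whose product dampens p53 signalling, followed the same course with 1849 and 2066 normalized counts at Nut1h and 4009 and 4127 at Nut10h. TP53INP1, a nuclear cofactor of p53, rose by 1.98 ± 0.12 and the cyclin gene CCNG1 by 0.33 ± 0.09, which became 1.06 with the GC trend removed. MDM4, the relative of MDM2 that inhibits p53 transactivation, fell from 2815 and 2380 to 1791 and 2098 normalized counts (-0.42 ± 0.14, adjusted p = 0.0153), and the ubiquitin ligase genes RCHY1 and RFWD2 fell by 0.93 and 0.34. With the GC trend removed MDM4 turned to 0.09, RCHY1 was at -0.09, and neither was called. The calls of RFWD2, MDM4 and CCNG1 were lost when certain single libraries were left out, as given in the section on processing.

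Arrest effectors differed in whether they were already raised at 1 h, and for several of them this depended on the GC trend. CDKN1A (chr6:36644237-36655114, plus strand), which encodes p21, had 10629 and 9286 normalized counts at Nut0h, 9837 and 10726 at Nut1h, and 145531 and 139682 at Nut10h. The Nut0h and Nut1h libraries overlapped, and the rise after 1 h was 3.79 ± 0.11 (adjusted p = 6.53e-11). With the GC trend removed this step was 3.12, and CDKN1A was already above the vehicle by 0.70 at Nut1h. PLK3, a stress-responsive polo-like kinase gene, had the same shape, with 2463 and 2554 normalized counts at Nut1h and 10780 and 9181 at Nut10h, and was likewise above the vehicle at Nut1h by 0.87 with the GC trend removed. BTG2, an antiproliferative cofactor of mRNA deadenylation, had instead reached 2075 and 2097 normalized counts at Nut1h from 1040 and 955, and went on to 6892 and 7226 at Nut10h. GADD45A and PLK2 also rose in both steps, with later steps of 0.58 ± 0.10 and 0.41 ± 0.09. SFN, the 14-3-3 sigma gene that holds cells in G2, was below the vehicle at Nut1h (7481 and 8407 against 16212 and 12554 normalized counts) and reached 45456 and 39079 at Nut10h. The repressor gene E2F7 had 1855 and 1642 normalized counts at Nut1h and 1337 and 1513 at Nut10h (-0.30 ± 0.12, adjusted p = 0.0359). It was at 0.16 with the GC trend removed, and the call was lost by DESeq2 (-0.27) and without Nut10h replicate 1 (-0.17), Nut1h replicate 1 (-0.21) or Nut1h replicate 2 (-0.38).

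Of the 16 tested death effectors, 14 rose and 1 fell, against 34.2% and 33.7% of all genes. BBC3, which encodes the BH3-only protein PUMA, went from 521 and 556 normalized counts at Nut1h to 4698 and 3891 at Nut10h (3.00 ± 0.13, adjusted p = 6.30e-10). Its transcript has a GC content of 69.7%, and with the GC trend removed the rise was 1.39 and the difference between Nut1h and the vehicle turned from -0.97 to 0.73. TP53I3, a quinone oxidoreductase gene, rose from 314 and 326 to 6930 and 6078 (4.35 ± 0.12). The death receptor gene FAS rose in both steps, from 392.3 and 383 normalized counts at Nut0h through 775 and 795 at Nut1h to 2221 and 2384 at Nut10h. Among the TRAIL receptor genes, the decoy receptor gene TNFRSF10C rose by 3.04 ± 0.15 and TNFRSF10A, TNFRSF10B and TNFRSF10D rose by 0.46, 0.90 and 0.66. BAX, the effector of mitochondrial permeabilization, had 1442 and 1644 normalized counts at Nut1h and 5664 and 5301 at Nut10h.

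PMAIP1, the gene for the BH3-only protein NOXA, was the death effector that fell. It had 1482 and 1404 normalized counts at Nut0h, peaked at 4329 and 3939 at Nut1h, and was back at 2153 and 2243 at Nut10h (-0.91 ± 0.09 from Nut1h, adjusted p = 1.09e-06). It was still above the vehicle by 0.61. With a GC content of 36.7%, it was at -0.12 and not called with the GC trend removed.

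Genes of repair and nucleotide supply were late as a rule, with 4 of 5 higher, against 34.2% of all genes. XPC, the damage sensor of nucleotide excision repair, stood at 1571 and 1540 normalized counts at Nut0h, 1532 and 1549 at Nut1h, and 4486 and 4314 at Nut10h (1.51 ± 0.09, adjusted p = 7.47e-09). DDB2, which recognizes ultraviolet damage, and POLH, a translesion polymerase gene, rose by 1.65 and 1.41. RRM2B, the p53-inducible subunit of ribonucleotide reductase, was already raised at Nut1h and rose by a further 0.89. FANCC, of the Fanconi anaemia core complex, fell by 0.71 ± 0.10.

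Metabolic and redox targets had 11 of 13 members higher, against 34.2% of all genes. SESN1, a sestrin gene that restrains mTORC1, rose in both steps to 1712 and 1933 normalized counts at Nut10h from 421 and 459 at Nut1h (2.05 ± 0.11). SESN2 was below the vehicle at Nut1h, at 920 and 950, and reached 4017 and 3569. FDXR, the mitochondrial ferredoxin reductase gene, rose from 2410 and 2512 to 20496 and 16646 (2.92 ± 0.12, adjusted p = 3.97e-10). SCO2, a factor of cytochrome c oxidase assembly, rose by 0.96 but had 503 and 370 normalized counts at Nut10h against 703 and 563 at Nut0h. LPIN1 fell by 0.40 ± 0.11, a call lost without Nut1h replicate 1 (-0.37) or Nut10h replicate 1 (-0.24). GLS2 had 39.1 and 45.3 normalized counts at Nut1h and 44.5 and 62.3 at Nut10h and was not called (95% interval of the log2 difference -0.31 to 1.00).

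Among 17 other p53 targets, 16 rose, against 34.2% of all genes. The stress cytokine gene GDF15 had the largest counts of this list at Nut10h, 88666 and 72539 normalized counts, after 3909 and 3971 at Nut1h and 10490 and 9528 at Nut0h (4.35 ± 0.12 between Nut1h and Nut10h). CD82, a tetraspanin gene, rose from 205 and 216 to 1919 and 1760. TGFA, the gene of an EGF receptor ligand, stood at 2190 and 2065 normalized counts at Nut1h, where Nut0h ranged from 2079 to 2433, and at 4585 and 4764 at Nut10h (1.14 ± 0.10). KITLG, the stem cell factor gene, fell by 0.88 ± 0.11 and was at -0.12 with the GC trend removed.

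**Figure D3:**
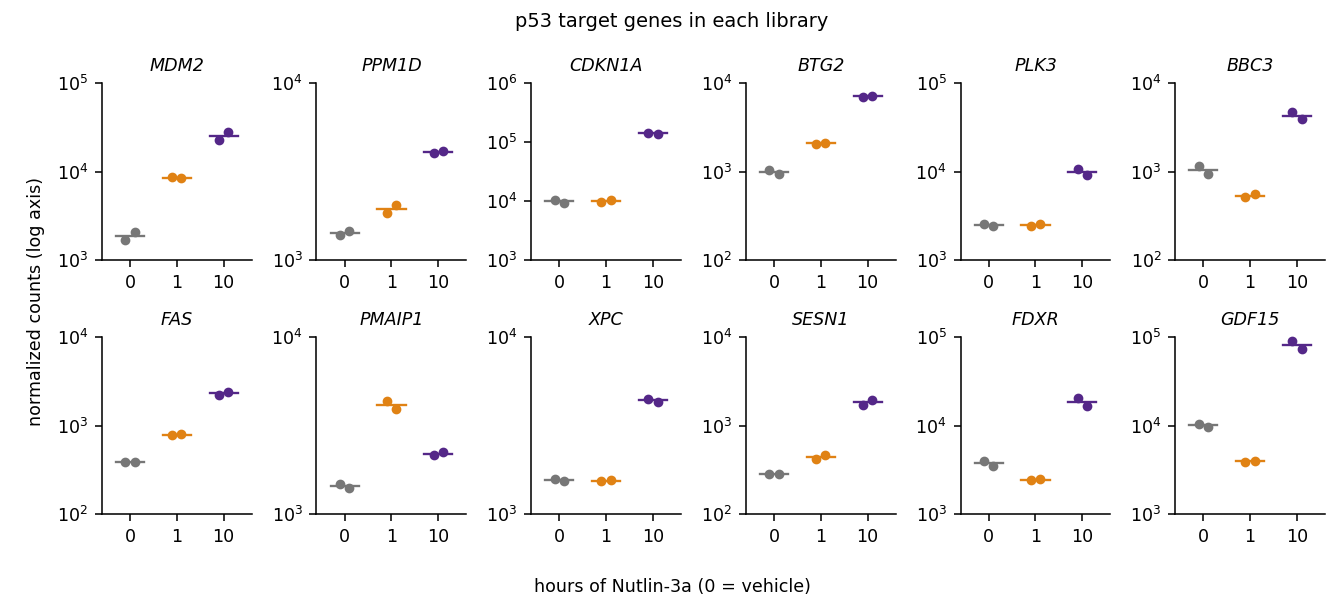
Normalized counts (log axis, 1 panel per gene, each with its own range) of 12 p53 target genes in the 2 libraries at 0, 1 and 10 h of Nutlin-3a, with points for libraries and a line for their mean. CDKN1A, PLK3 and XPC are level until 1 h, MDM2, PPM1D, BTG2, FAS and SESN1 climb in both steps, BBC3, FDXR and GDF15 dip at 1 h, and PMAIP1 peaks at 1 h; with the GC trend removed, CDKN1A and PLK3 are above the vehicle at 1 h (0.70 and 0.87) and the dips of BBC3 and FDXR turn to 0.73 and 0.35.

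Genes with a p53 binding site at their promoter, by the study's own list, were examined next. Of 95 genes on the list, 67 were tested, and 44 rose and 13 fell between Nut1h and Nut10h, with a median of 0.64, against 34.2% and 33.7% of all genes. The study drew that list from p53 binding in this line and from histone acetylation measured under the same treatment, not from these RNA libraries. Of 286 tested distal targets, linked to a p53 site through chromatin contacts, 129 rose (45.1%) and 95 fell (33.2%, near the 33.7% of all genes), with a median of 0.15. For each such site the study prioritized the contacted gene whose promoter gained the most histone acetylation, so membership drew on a response to this same treatment. In this larger list 63 genes rose back and 61 fell back to the vehicle level, near the 19.0% and 21.1% of all genes, while 49 rose above it and 20 fell below it, against 9.01% and 8.47%. After removal of the GC trend 38 rose back, 16 fell back, 57 rose above the vehicle and 37 fell below it. In that fit 1883 of all 16565 genes rose back and 1627 fell back, and the late class alone held 1233 rising and 1460 falling genes. The shares given above are from the uncorrected fit, so the 57 and 37 genes cannot be read against 9.01% and 8.47%.

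The bound sites show the p53 response element as it stands in the genome. The canonical element, a pair of adjacent decamer repeats with no spacer, was searched for with up to 2 mismatches in the 223 bases of each of the 64 promoter sites. It was found in 23.4% of them, against 0.447% of 35116 RefSeq promoter stretches of the same length (GRCh38.p14). The elements of 3 genes that rose and whose match lies outside annotated UTRs are given here on the plus strand of GRCh37, with the element in capitals and 5 bases on each side. They were chosen after their values were seen, for the size of the rise.

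BBC3, chr19:47735825-47735844, in a coding exon of the longer BBC3 transcript models: ggcatGGACATGCCTGGGCAGACCCcatgc
LRP1, chr12:57521595-57521614, in an intron of STAT6 on the other strand: cgggcGGACAAGCTCCGGCGTGTCCcctcg
PANK1, chr10:91405013-91405032, in an exon of the antisense gene PANK1-AS1: ccactGAGCATGCCCAGTCCTGCCCgccac

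Of these genes, PANK1, the gene of a pantothenate kinase for coenzyme A synthesis, was level until 1 h (177 and 196 normalized counts) and rose to 615 and 746 at Nut10h. LRP1, an endocytic receptor gene, was lower at Nut1h than the vehicle and then rose by 2.16 ± 0.12 to 1593 and 1664 normalized counts. A match describes letters in a window and does not show that the factor acts there.

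Among late genes averaging 100 or more normalized counts over the 6 libraries, with a symbol that is not a clone name and no overlap between Nut1h and Nut10h, the largest rises included genes with low starting levels. INPP5D, a phosphoinositide phosphatase gene known from blood cells, had 40.1 and 25.2 normalized counts at Nut1h and 729 and 624 at Nut10h (4.34 ± 0.20, adjusted p = 9.23e-10). ACTA2, the smooth muscle actin gene and a member of the promoter-site list, rose from 44.1 and 60.4 to 631 and 692. Its span overlaps FAS on the opposite strand, and since the strand setting of the counting is not given in the sources used here, reads of the shared stretch cannot be assigned. DRAXIN and ALOX5 rose by 3.58 and 3.34, and the others of the first 6 were CDKN1A and TNFRSF10C of the p53 lists. DRAXIN overlaps MAD2L2 on the other strand.

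Among overshooting genes chosen by the same limits, the values were as follows. SORCS2, a sortilin-family receptor gene (chr4:7194265-7744563), went from 18.1 and 8.81 normalized counts at Nut1h to 1087 and 1003 at Nut10h (6.22 ± 0.23). HMCN2, a hemicentin gene, went from 4.01 and 5.03 to 379 and 293. UNC5B-AS1 and PLXNB3, a plexin gene, rose by 4.76 and 3.85, the former in the span of UNC5B on the opposite strand. Among the progressive genes, ABCA12, a member of the p53 lists and a lipid transporter gene of the epidermis, rose from 54.2 and 51.6 to 432 and 510 (3.15 ± 0.17, with the 1 h step no longer called when the GC trend was removed), and SERPINB5, the maspin gene, from 1024 and 1116 to 5017 and 5689. PVRL4, a nectin gene, rose by 3.02, and the transcription factor genes GRHL3 and PRDM1 by 2.49 and 2.44.

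Cell-cycle genes fell below the vehicle level almost without exception, 49 of the G1/S list and 47 of the G2/M list among the 1403 genes of that side. Of 54 genes for G1/S and DNA replication, 50 fell and 0 rose by the edgeR test, against 33.7% and 34.2% of all genes, with a median of -1.66. At Nut10h 53 were below the vehicle, against 14.9% of all genes. At an unadjusted p under 0.05, and by DESeq2, 0 rose as well. Without Nut10h replicate 2, POLD1 and LIG1 passed the test in the rising direction (0.29 and 0.43), and LIG1 also with the replicate block and crossed Nut1h numbers (0.21). By class, without the correction, 15 were late, 8 progressive and 26 overshooting. Of all 786 falling overshooting genes, 259 (33.0%) stayed in that class with the GC trend removed, so a rise at 1 h in these members is uncertain. After removal of the GC trend 52 fell.

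CCNE2, the gene of a cyclin that opens S phase, had 416 and 436 normalized counts at Nut0h, 965 and 992 at Nut1h, and 57.0 and 87.5 at Nut10h (-3.75 ± 0.16, adjusted p = 4.53e-10). In these counts, which hold the GC trend, the 1 h libraries were the highest and the 10 h libraries the lowest, with no overlap. CLSPN, the gene of the checkpoint mediator claspin, and EXO1, a DNA exonuclease gene, had the same shape and fell by 3.24 and 3.21. E2F2, an activator of S-phase genes, and ORC1, of the origin recognition complex, had no call at 1 h (2086 and 2186, and 2278 and 2343 normalized counts) and then fell to 402 and 313, and to 587 and 560. GINS2, of the replicative helicase, and the transcription factor gene MYB were slightly lower at Nut1h and fell by a further 1.83 and 2.11.

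Genes for G2/M and mitosis fell as a block, 47 of 48 against 33.7% of all genes, with a median of -1.71. All 48 were below the vehicle at Nut10h, against 14.9% of all genes. By the edgeR test 0 rose, and likewise 0 at an unadjusted p under 0.05 and 0 by DESeq2. CENPF, a kinetochore gene, had 6011 and 6778 normalized counts at Nut0h, 15433 and 13047 at Nut1h, and 1901 and 2149 at Nut10h (-2.81 ± 0.12, adjusted p = 4.28e-10). ASPM and KIF11, genes of the spindle, fell by 2.71 and 2.66. With the GC trend removed, the difference of ASPM between Nut1h and the vehicle went from 0.99 to 0.19. CCNA2, the cyclin A gene, stood at 5235 and 5297 normalized counts at Nut1h, close to 4921 and 4589 at Nut0h, and at 1139 and 1217 at Nut10h; with the GC trend removed it was already lower by 0.42 at Nut1h. HJURP, the chaperone of the centromeric histone CENP-A, fell by 2.12 ± 0.10.

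Under the same limits on counts, symbols and overlap, the largest falls to a level below the vehicle were in FAM111B, a protease gene with S-phase expression, which went from 982 and 1077 to 67.7 and 56.8 normalized counts (-4.05 ± 0.14), and in ZNF724P and ZNF367, 2 zinc finger genes, with -3.90 and -3.75. BARD1, the partner of BRCA1, fell by 3.55. RIBC2 and MTFR2 were late genes that fell by 2.08 each, and TICRR, GSG2, KIFC1 and CHAF1A were progressive genes that fell by between 1.83 and 1.61, of which GSG2, KIFC1 and CHAF1A left that class with the GC trend removed.

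The promoters of the mitotic genes share a short motif. The cell-cycle genes homology region (CHR) is bound by the MuvB core of the DREAM complex. It was searched as TTTGAA or TTCGAA on both strands, in the RefSeq window from 250 bases before to 50 after the start site. TTCAAA is the reverse complement of the former, and TTCGAA is its own reverse complement. The motif occurred in 28 of 40 G2/M genes with a matched promoter (70.0%), in 4.44% of 45 G1/S genes and in 16.4% of all 35116 promoters. Lists and classes hold 1 promoter per gene symbol, whereas the 35116 include every promoter of a gene. Positions were listed only for matches with 12 bases left between them and the start site, so matches that begin fewer than 18 bases before it are missing. Among the listed matches, those of 12 G2/M genes began within 40 bases before the start site. The 4 of these with the largest falls are printed on the strand of the gene (GRCh38.p14), with each match in capitals and the position of 1 of them, since HMMR and ANLN hold a pair.

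KIF11, chr10:92593102-92593107, log2 difference -2.66: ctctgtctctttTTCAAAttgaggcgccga
HMMR, chr5:163460604-163460609, log2 difference -2.37: aatgtggggagaTTTGAATTTGAAaccggt
BUB1B, chr15:40161046-40161051, log2 difference -2.16: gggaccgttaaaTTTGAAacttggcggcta
ANLN, chr7:36389842-36389847, log2 difference -1.94: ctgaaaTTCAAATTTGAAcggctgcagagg

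HMMR encodes a spindle-associated hyaluronan receptor, BUB1B a kinase-like protein of the spindle checkpoint, and ANLN the cytokinesis scaffold anillin. In the falling return genes the motif was found in 12.5% of 2265 matched promoters, in the falling overshooting genes in 22.1% of 603, in the late falling genes in 13.5% of 333 and in the progressive falling genes in 28.4% of 102. The shares were 6.93% of 2150 in the rising return genes and 10.1% of 368 in the late rising genes.

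Genes that fell back to the vehicle level included 8 of the 32 growth-factor-responsive immediate early genes, near the 21.1% of all genes. EGR3, a zinc finger gene of this group, had 74.4 and 73.2 normalized counts at Nut0h, 722 and 712 at Nut1h, and 68.6 and 40.01 at Nut10h (-3.73 ± 0.18, adjusted p = 1.22e-09). NR4A3, an orphan nuclear receptor gene, went from 494 and 430 at Nut1h to 52.2 and 31.6. CTGF, a matricellular gene and target of YAP, stood at 265 and 214, then 1624 and 1576, then 276 and 259. The fitted log2 difference between Nut10h and the vehicle was 0.16.

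Of the 32 immediate early genes, 16 fell and 10 rose, with a median of -0.25, against 33.7% and 34.2% of all genes. KLF2, a transcription factor gene, and MYC were among those that rose, by 2.27 and 1.16. With the GC trend removed, 23 of the list fell and 4 rose. Other genes at the top of the falling return class were POMK, a kinase gene of dystroglycan glycosylation, with 818 and 755 normalized counts at Nut1h and 88.0 and 96.8 at Nut10h, and the antisense gene SETD5-AS1, which overlaps SETD5, with 376 and 356 and then 52.2 and 47.5. The mitochondrial tRNA gene MT-TN had 1.93 and 2.82 normalized counts at Nut0h, 897 and 828 at Nut1h, and 3.87 and 9.31 at Nut10h (-7.00 ± 0.22 between the last 2).

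For some rising return genes, both Nut1h libraries held far fewer counts than the vehicle libraries. CNIH3, a gene of AMPA receptor trafficking (chr1:224622362-224928256), had 455 and 393 normalized counts at Nut0h, 14.05 and 16.4 at Nut1h, and 432 and 347 at Nut10h (4.68 ± 0.22, adjusted p = 1.07e-09). TXNDC5, a protein disulfide isomerase gene, had 1893 and 1534, then 60.2 and 64.2, then 1697 and 1226. SRXN1, the sulfiredoxin gene of the oxidative stress response, had 27.1 and 49.1 at Nut1h and 684 and 488 at Nut10h. In each of the 3 the Nut10h libraries overlapped the range of the vehicle and lay far from both Nut1h libraries, and the rise was at least 3.78 with the GC trend removed.

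BCYRN1, a short primate RNA of the brain, and the microRNA precursors MIR3648 and MIR3687, which lie next to each other on chromosome 21, completed the top of the class. MIR3648 had 5.02 and 8.81 normalized counts at Nut1h and 835 and 543 at Nut10h, and its annotated span has a GC content of 83.9%. On removal of the GC trend its rise went from 6.66 to 3.69. BCYRN1 rose by 3.77 ± 0.18. Genes as short as these or with near-identical copies depend on how reads mapping to several places were counted, which is not given in the sources used here.

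**Figure D4:**
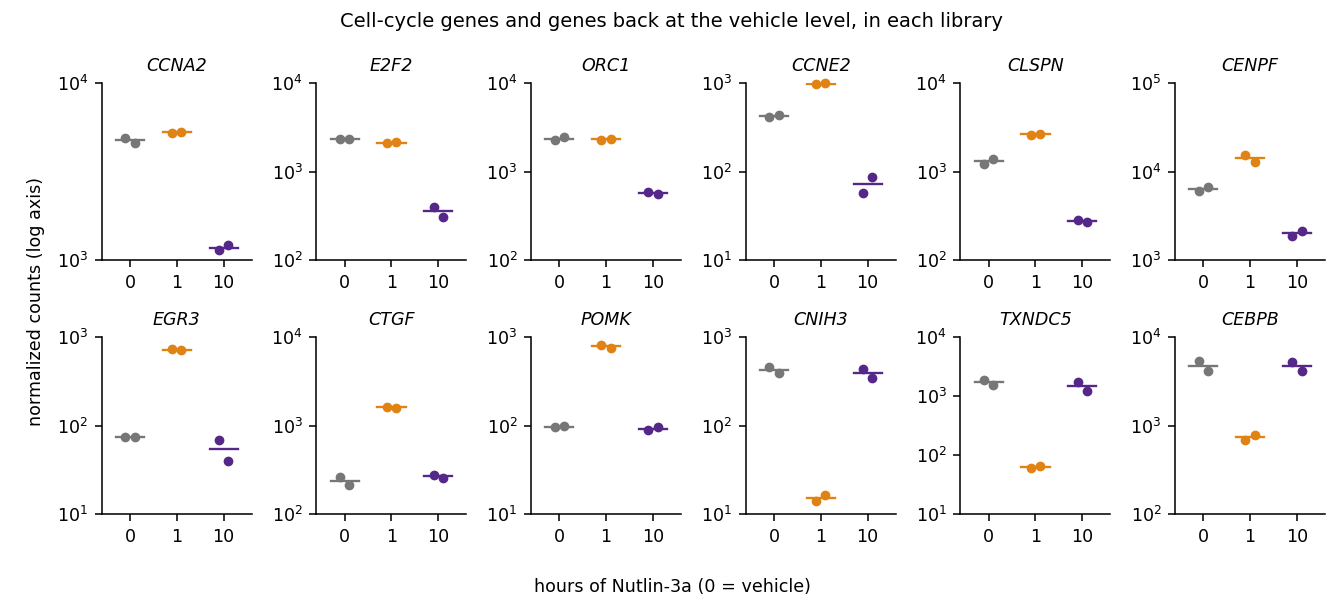
Normalized counts (log axis, 1 panel per gene, each with its own range) of 6 cell-cycle genes and 6 return genes in the 2 libraries at 0, 1 and 10 h, with points for libraries and a line for their mean. The cell-cycle genes of the top row end below the vehicle at 10 h, and EGR3, CTGF, POMK, CNIH3, TXNDC5 and CEBPB end at or near it after a 1 h change.

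Other gene groups moved partly beyond and partly back to the vehicle. Of 27 genes of cholesterol and fatty acid synthesis, 16 fell and 6 rose, and 18 were below the vehicle at Nut10h, against 33.7%, 34.2% and 14.9% of all genes. INSIG1, the sterol-sensing retention factor of SREBP, went from 2878 and 2937 to 609 and 632 normalized counts (-2.23 ± 0.09), and IDI1 and HMGCS1, enzymes of the mevalonate pathway, fell by 1.88 and 1.77. CYP51A1, the lanosterol demethylase gene, and SREBF2 rose by 0.76 and 0.78 back to the vehicle level. SREBF1 rose by 0.69, and fell by 0.39 with the GC trend removed, where 24 members of the list fell and 3 rose.

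Of 28 genes for SR and hnRNP splicing factors, 26 fell and 0 rose by the edgeR test, against 33.7% and 34.2% of all genes. At an unadjusted p under 0.05 and by DESeq2, 0 rose as well. SRSF10 fell most, from 8495 and 8548 to 2640 and 3051 normalized counts (-1.58 ± 0.10). At Nut10h 15 members were below the vehicle, while 24 had been above it at Nut1h, against 14.9% and 34.5% of all genes. The median GC content of this list was 40.9%, and with the GC trend removed 18 fell and 1, HNRNPC, rose by 0.37. Of 16 heat shock genes, 13 fell and 2 rose, against 33.7% and 34.2% of all genes, and 12 fell and 1 rose with the GC trend removed. HSPH1 and DNAJA1, co-chaperones of HSP70, fell by 1.53 and 1.51, and HSPB1 and BAG3 rose by 1.38 and 0.62, both back to the vehicle level, though BAG3 was at 0.041 and not called with the GC trend removed.

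Of 26 ribosome biogenesis genes, 15 fell and 5 rose, against 33.7% and 34.2% of all genes, with the nucleolar protein genes NOP58 and NCL down by 1.30 and 1.25. With the GC trend removed 17 fell and 0 rose (1 at an unadjusted p under 0.05 by edgeR in that fit), against 4811 and 4771 of all 16565 genes. Without that correction 6 rose at an unadjusted p under 0.05, and DESeq2 called 4. Of 78 genes of cytosolic ribosomal proteins, 48 rose and 10 fell, against 34.2% and 33.7% of all genes. Of the former, 43 returned to the vehicle level, against 19.0% of all genes in the rising return class. RPL26 rose from 1111 and 1173 to 4302 and 4064 normalized counts, close to 4913 and 4330 at Nut0h, whereas RPL39 fell from 8236 and 8748 to 3353 and 3210, close to 3104 and 3286. The same correction gave 56 rising and 11 falling, against 4771 and 4811 of all 16565 genes.

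Among 73 tested nuclear subunits of the respiratory chain, 38 rose and 17 fell, and 32 and 13 of these were return genes, against 34.2%, 33.7%, 19.0% and 21.1% of all genes. After removal of the GC trend 40 rose and 10 fell, 34 and 6 of them return genes, against 4771, 4811, 1883 and 1627 of all 16565 genes. ATP5I and COX8A rose by 2.0 and 1.70, and NDUFV2 fell by 1.2. Of the 13 mRNAs of the mitochondrial genome, 8 fell and 0 rose by the edgeR test, where 33.7% and 34.2% of all genes did. At an unadjusted p under 0.05 and by DESeq2, 1 rose, MT-ATP8. MT-ATP8 was also called higher by edgeR with RLE factors (0.30), a length offset (0.49), no low-count filter (0.28) or only the 4 Nutlin-3a libraries (0.29), and without Nut0h replicate 1 (0.29), Nut0h replicate 2 (0.29) or Nut10h replicate 2 (0.49). MT-ND3 was called higher with the length offset (0.29) and without Nut10h replicate 1 (0.33), and MT-ATP8, MT-ND3 and MT-CO2 with the crossed replicate block (0.28, 0.19 and 0.14). At Nut10h 5 of the 13 were still above the vehicle, against 14.1% of all genes. MT-ND6, the one on the other strand of the mitochondrial genome, fell by 1.01. The share of mitochondrial counts moved the same way, as given above, and its part in these calls was not tested. After removal of the GC trend 5 fell and 4 rose, against 4811 and 4771 of all 16565 genes.

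The integrated stress response list had 9 of 26 higher and 7 lower, against 34.2% and 33.7% of all genes, and 9 higher and 11 lower with the GC trend removed. DDIT4, the mTORC1 inhibitor REDD1, went from 415 and 443 at Nut1h to 4041 and 4550 normalized counts at Nut10h, above 2755 and 2858 at Nut0h. CEBPB rose by 2.67 back to the vehicle level, and the cystine transporter gene SLC7A11 fell by 1.39 but stayed above it. Of 19 glycolysis genes 10 rose and 3 fell, against the same 34.2% and 33.7% of all genes. SLC2A1 rose by 1.72 to a level above the vehicle and GAPDH by 1.12 back to it. With the GC trend removed 8 members rose and 5 fell, against 4771 and 4811 of all 16565 genes in that fit. Of 14 NF-kB response genes 6 rose and 2 fell, again against 34.2% and 33.7% of all genes. With the GC trend removed 4 rose and 3 fell, against 4771 and 4811 of all 16565 genes. Among them ICAM1, an adhesion molecule, rose from 15.0 and 7.55 to 57.0 and 55.8 normalized counts. IL8 fell by 1.37 and was at -0.37 and not called with the GC trend removed.

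Of 365 tested ZNF genes, which encode zinc finger proteins, 201 fell (55.1%) and 88 rose (24.1%), with 150 falling back to the vehicle level. Of all genes 33.7% fell, 34.2% rose and 21.1% fell back. Their median GC content was 44.2%, and with the GC trend removed 163 fell, 95 of them back to the vehicle level, and 72 rose. Of all 16565 genes, 4811 fell, 1627 of them back to the vehicle level, and 4771 rose in that fit. ZNF423 and ZNF219 rose by 3.78 and 3.42. Of 14 tested replication-dependent histone genes 3 rose and 3 fell, shares below the 34.2% and 33.7% of all genes, with HIST1H4C higher by 3.33, and HIST1H2BN fell by 1.35, a call lost without Nut1h replicate 1 (-1.10) or Nut10h replicate 2 (-1.2), by DESeq2 (-1.31) and with the GC trend removed (-0.69). Transcripts of these genes mostly lack the poly(A) tail. Among the intestinal epithelium markers KRT19, CLDN4 and CDX2 rose by 1.84, 1.43 and 1.38, and EPCAM and CDH1 fell by 0.78 and 0.34. The call of CDH1 was lost without Nut10h replicate 1 (-0.23) or Nut1h replicate 1 (-0.32).

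**Figure D5:**
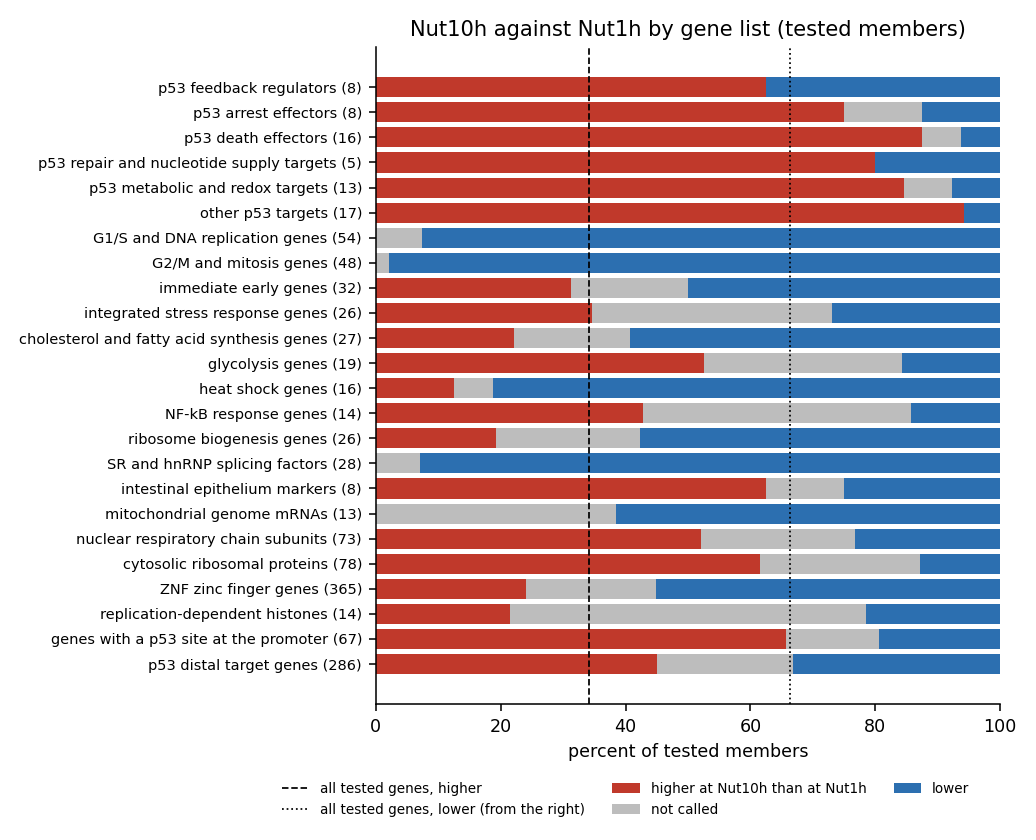
Percent of the tested members of each gene list (number in parentheses) that were higher, not called and lower at Nut10h than at Nut1h, for lists with at least 5 tested members. The dashed and dotted lines mark the 34.2% and 33.7% of all tested genes; the p53 lists lie above the former and the cell-cycle and splicing factor lists far past the latter.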

How the data were processed

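RNA-seq of 6 HCT116 libraries was used (2 each of Nut0h, Nut1h and Nut10h, 10 µM Nutlin-3a or vehicle). Per the labels and the study's methods, the authors trimmed reads with Trim Galore 0.6.6, aligned them to GRCh37 with STAR 2.7.0f and deposited gene counts from featureCounts (Subread 2.0.0). Strand setting and treatment of multimapping reads are not given in the sources used here. A deposited table with the authors' own comparisons (fold changes and p-values) was used for gene symbols only.

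Genes kept by filterByExpr (16565) were scaled by TMM and tested with edgeR 4.0.16 (quasi-likelihood, R 4.3.3, limma 3.58.1) over all 6 libraries with condition as the only term. P-values were adjusted by Benjamini-Hochberg over all tested genes and called at 0.05. Values after ± are standard errors of the log2 difference. For normalized counts, each library was rescaled to the mean effective size (total times TMM factor) of the 6. GC content and coordinates came from GENCODE v44 lifted to GRCh37. The GC-content and length offsets remove a loess trend (span 0.4) of each library. DESeq2 1.42.0, other scalings, filters and thresholds and each library left out were tried. The test was tried on simulated data. Figures used matplotlib 3.10.9.

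The members and gene lists were chosen with earlier results of these data known. Named genes were tested members of the p53 lists, the 6 largest changes per class (mean of at least 100 normalized counts, no overlap between Nut1h and Nut10h, no clone names), and up to 3 called members in each direction of every other list, and MDM2, CDKN1A, BAX and TGFA. LRP1, HMMR, BUB1B, ANLN, POLD1, LIG1, HNRNPC, MT-ATP8, MT-ND3, MT-CO2 and VWF were named after their values were seen. P-values measure the spread between these libraries, whose replicates differed by more than sampling noise (chi-square per degree of freedom from 5.21 to 16.9). Results for some items are not reported here.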

Additional observations from a re-analysis of the deposited data

How the results depend on the processing

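The counts of rising (5658) and falling genes (5588) stayed within 1.5 times under every alternative but the demand for a log2 change of at least 1, which left 2714 and 2032 genes, and 350 and 288 late and 1614 and 1018 return genes (rising and falling). The GC-content offset gave 1233 and 1460 late and 1883 and 1627 return genes, and with the replicate block added 1201 and 1438 late and 1853 and 1611 return genes. DESeq2 called 405 late rising genes. With no condition on the 1 h change, 1493 and 1403 genes took the place of the late genes. The cause was not tested. With each library left out in turn, rising genes ranged from 4577 to 5822, falling from 4437 to 5691, late rising from 494 to 665, late falling from 368 to 499, return rising from 2721 to 3497 and return falling genes from 2749 to 3456.

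The replicate numbers did not pair the libraries (correlation of deviations -0.14 between Nut10h and Nut1h, 0.22 between Nut10h and Nut0h and -0.15 between Nut1h and Nut0h). With the replicate block, 5633 genes rose and 5556 fell (late 614 and 481, return 3054 and 3446), and with the Nut1h numbers crossed, an alternative chosen after seeing the data, 6165 and 6208 (late 700 and 510, return 2369 and 2996). Without mitochondrial genes, also chosen later, 5835 rose and 5356 fell.

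Of the named genes, 7 changed sign under the GC-content offset, without and with the replicate block: COL1A1 (-0.33 in both), E2F7 (0.16 in both), MDM4 (0.088 and 0.083), PFKL (-0.081 in both), PPAN (-0.49 in both), RRP9 (-0.43 in both) and SREBF1 (-0.39 in both). No called named gene changed sign in the other settings planned, and single genes were not followed in the alternatives chosen later. AEN was at 0.12 and not called with the GC-content offset. With 1 library left out, calls were lost for E2F7, AEN, BID and RFWD2 (without Nut10h replicate 1, -0.17, 0.25, 0.26 and -0.27; without Nut1h replicate 1, -0.21, 0.17, 0.27 and -0.32; without Nut1h replicate 2, -0.38, 0.32, 0.27 and -0.35), MDM4 (without Nut10h replicate 1, -0.27, or Nut1h replicate 1, -0.30) and CCNG1 (without Nut1h replicate 2, 0.30). The smallest library, Nut1h replicate 2, limits genes with few counts.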

Other observations

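Among short non-coding genes, 31 of 59 tested snoRNA genes were lower at Nut10h than at Nut1h and 2 were higher, with a median log2 difference of -0.99, against 33.7% lower and 34.2% higher over all genes. Their median difference between Nut10h and the vehicle was 0.17. Most snoRNAs lie within introns of other genes, and how reads of overlapping genes were assigned is not given in the sources used here.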
